A study of Populus tomentosa with 9 samples.

Results

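The poplar gene models POPTR_0011s03140, POPTR_0011s03150, POPTR_0013s09960 and POPTR_0013s09980 are described here, 4 of 41624 genes listed, across 9 RNA-seq libraries. They were chosen by their values in these libraries. All 4 were near absent in wild type cells, abundant in the overexpression line and present at intermediate levels in the antisense line. The authors' deposited tables describe POPTR_0013s09960 as a MADS-box transcription factor and both POPTR_0011s03140 and POPTR_0013s09980 as K-box transcription factors. POPTR_0011s03150 has no description and was included for its adjacent number and its like pattern. Because the contrast with wild type chose the genes, every difference between the lines below is a description and has no test.

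The libraries came from suspension-cultured cells of Populus tomentosa, 1 for each combination of 3 cell lines and 3 treatments, with no replicates. The lines were an overexpression line, an antisense line and a wild type. Cells of each line were used 5 days after subculturing. H2O2, a reactive oxygen species, was given at 10 mM for 3 h, and ASA, whose full name is not in the labels, at 1 mM for 3 h. Control cells received neither agent. The sources used here name neither the gene in the constructs nor its promoter, nor say whether a line is 1 clone, so no level of a targeted gene can check the lines. The extraction protocol names Arabidopsis stem, which contradicts the organism and source labels, and poplar is taken here from those labels and the POPTR identifiers. No marker list for suspension cells was used.

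MADS-domain proteins are transcription factors that bind DNA through the MADS domain. In the plant proteins known as the MIKC type, a K-box follows the MADS domain and forms a coiled structure through which the proteins pair with one another. In flowering plants, members of this family are known for specifying floral organs and setting flowering time. Others act in fruit, seed and root development.

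Read counts were recovered as the smallest whole numbers that fit the deposited values in FPKM, a unit that scales reads to gene length and library size. For genes whose reads share a common factor, these numbers understate the reads. For POPTR_0011s03140, POPTR_0013s09960 and POPTR_0013s09980 each recovered read is worth the same signal in the authors' deposited tables as for other genes, 0.0486 to 0.0542, while POPTR_0011s03150 is not in those tables and could not be checked. Recovered reads summed to between 17102469 reads in the antisense control and 19629543 reads in the overexpression control. In a gene of 1 kb, 3 reads corresponded to 0.153 to 0.175 FPKM. Counting intervals below are exact 95% intervals on these reads and cover counting error only, not the spread between cultures. Libraries labelled antisense H2O2 and antisense ASA ran against the other lines. Across 23350 genes, their H2O2 minus ASA difference on the log2(FPKM + 1) scale correlated at r = -0.84 with that of the wild type and at r = -0.58 with that of the overexpression line, whereas overexpression and wild type correlated at r = 0.62 with each other. These correlations are across genes, which are not independent replicates. Whether the labels of these 2 libraries are exchanged was not tested. Their values are given as labelled, and values with the labels exchanged, an alternative chosen after seeing the data, stand beside the results they move.

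POPTR_0011s03140, described as a K-box transcription factor, was the most abundant of the 4 in overexpression control cells. It had 38.2 FPKM with H2O2, 39.9 FPKM with ASA and 77.9 FPKM in the control in the overexpression line. Antisense cells had 10.8 FPKM in the library labelled H2O2, 15.6 FPKM in the one labelled ASA and 21.2 FPKM in the control. Wild type cells had 0 FPKM with H2O2, 0.329 FPKM with ASA and 0.107 FPKM in the control. The 3 lines did not overlap, with overexpression highest and wild type lowest. The wild type values rested on 0, 3 and 1 reads, against 363 to 749 reads in overexpression libraries and 97 to 178 reads in antisense libraries. In the control, the overexpression level was 730-fold higher than the wild type level, with a counting interval of 131 to 28859. With ASA it was 121-fold higher (41.2 to 591). With H2O2 the wild type library had 0 reads. Taking it at a floor of 3 reads, the overexpression level was 117-fold higher. The counting interval on the 0 reads had a lower end of 94.6 and no upper end. The antisense level was 199-fold higher than wild type in the control (35.3 to 7905) and 47.4-fold higher with ASA (15.9 to 233). With H2O2 it was 33.0-fold higher by the same floor, and the lower end of the counting interval was 26.4.

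POPTR_0011s03150, whose number follows that of POPTR_0011s03140 and which has no deposited description, showed the same order of lines at lower levels. In the overexpression line it had 16.8 FPKM with H2O2, 22.7 FPKM with ASA and 34.9 FPKM in the control. The antisense line had 2.78 FPKM in the library labelled H2O2, 5.80 FPKM in the one labelled ASA and 10.1 FPKM in the control. Wild type cells had 0.181, 0.365 and 0.355 FPKM with H2O2, with ASA and in the control. No library of one line overlapped with those of another. The wild type values were 1 or 2 reads each. Overexpression exceeded wild type 92.7-fold with H2O2 (16.3 to 3700), 62.2-fold with ASA (16.8 to 519) and 98.4-fold in the control (26.9 to 818). Antisense exceeded wild type 15.3-fold with H2O2 (2.36 to 645), 15.9-fold with ASA (4.06 to 137) and 28.5-fold in the control (7.5 to 242).

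POPTR_0013s09960 carries the MADS-box description, the DNA-binding part of the family. It had 67.5 FPKM with H2O2, 57.9 FPKM with ASA and 60.4 FPKM in the control in overexpression cells. In the antisense line it had 2.90 FPKM in the library labelled H2O2, 3.09 FPKM in the one labelled ASA and 4.51 FPKM in the control. Wild type cells had 0.258 FPKM with H2O2, 1.29 FPKM with ASA and 0.252 FPKM in the control. The overexpression libraries stood far above all others, while antisense and wild type lay closer together without overlap. Overexpression exceeded wild type 262-fold with H2O2 (46.6 to 10377), 44.7-fold with ASA (18.9 to 139) and 240-fold in the control (42.6 to 9504). Antisense exceeded wild type 11.2-fold with H2O2 (1.63 to 484) and 17.9-fold in the control (2.78 to 750). With ASA the antisense library had 12 reads and the wild type library 5 reads, and the 2.39-fold ratio had an interval of 0.783 to 8.65, which includes equal levels.

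POPTR_0013s09980, the other K-box gene, was likewise highest in the overexpression line. In the overexpression line it had 53.1 FPKM with H2O2, 50.3 FPKM with ASA and 68.1 FPKM in the control. Antisense cells had 2.44 FPKM in the library labelled H2O2, 2.54 FPKM in the one labelled ASA and 3.92 FPKM in the control. Wild type cells had 0.747, 0.300 and 0.585 FPKM with H2O2, with ASA and in the control, from 5, 2 and 4 reads. Again the lines did not overlap. Overexpression exceeded wild type 71.1-fold with H2O2 (30.2 to 220), 167-fold with ASA (46.0 to 1388) and 116-fold in the control (45.2 to 429). Antisense exceeded wild type 3.27-fold with H2O2 (1.14 to 11.4), 8.46-fold with ASA (2.01 to 75.5) and 6.71-fold in the control (2.30 to 26.6).

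**Figure D1:**
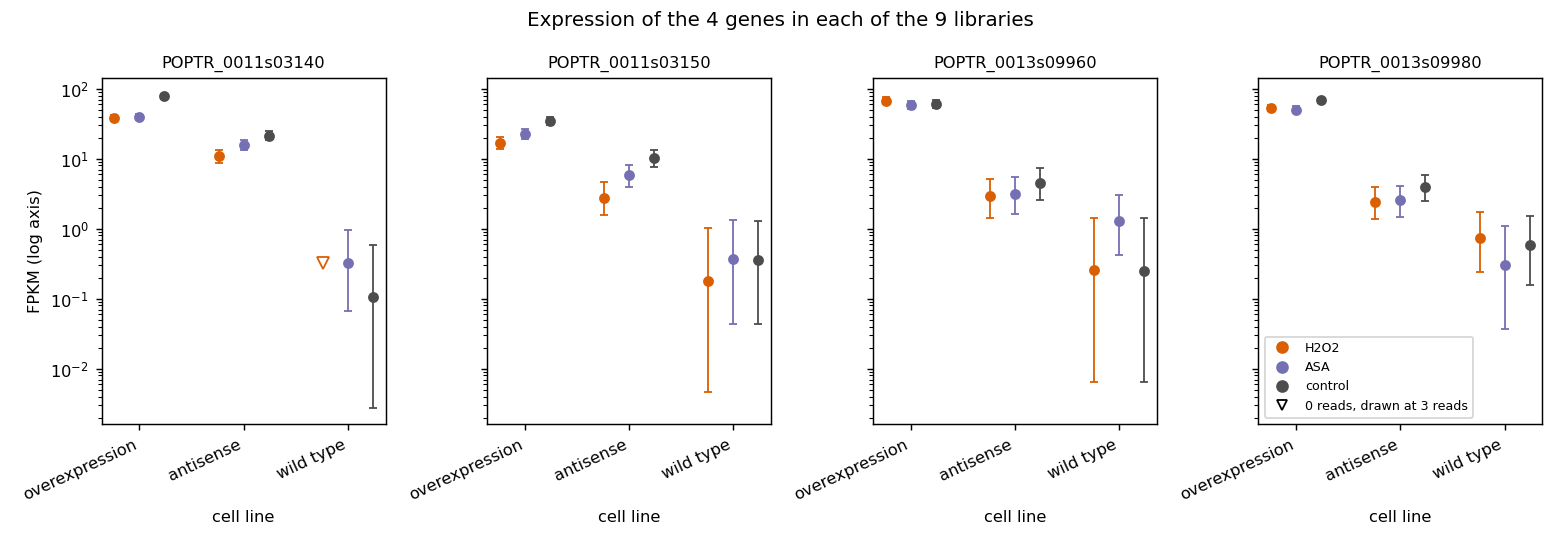
Expression of each of the 4 genes in FPKM on a log axis, with overexpression, antisense and wild type from left to right and H2O2, ASA and control within each line; points are single libraries, bars are exact 95% counting intervals, and the open triangle is a library with 0 reads drawn at the level of 3 reads. The overexpression libraries lie at 16.8 to 77.9 FPKM, the antisense libraries at 2.44 to 21.2 FPKM and the wild type libraries at 0 to 1.29 FPKM.

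Summed over the 4 genes, the overexpression libraries held 176 FPKM with H2O2, 171 FPKM with ASA and 241 FPKM in the control. The antisense libraries held 18.9, 27.0 and 39.8 FPKM in the same order, and the wild type libraries 1.19, 2.29 and 1.30 FPKM. In reads, the 4 genes together had 1044 to 1675 reads per overexpression library, 139 to 269 per antisense library and 7 to 12 per wild type library. Overexpression was above wild type in 12 of 12 pairs of gene and treatment, and antisense was above wild type in 12 of 12, with 11 of these 12 intervals above equal levels. The genes were chosen for this pattern, so these counts describe the choice and are no evidence for the pattern. Of all tested genes, 0.685% had overexpression above antisense above wild type without overlap. In bulk libraries of this kind, more cells that express a gene and more RNA per cell cannot be told apart.

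On the log2(FPKM + 1) scale, limma's fit over all 9 libraries gave overexpression minus wild type differences of 5.46 ± 0.25 (SE) for POPTR_0011s03140, 4.25 ± 0.26 for POPTR_0011s03150, 5.35 ± 0.28 for POPTR_0013s09960 and 5.23 ± 0.19 for POPTR_0013s09980. Ranked among 23350 tested genes, these were the differences at positions 1, 5, 2 and 3. The antisense minus wild type differences were 3.84 ± 0.25 for POPTR_0011s03140 and 2.34 ± 0.26 for POPTR_0011s03150, at positions 1 and 2. They were 1.53 ± 0.28 for POPTR_0013s09960 and 1.35 ± 0.19 for POPTR_0013s09980, at positions 20 and 40. As background, 1.05% of the tested genes passed an adjusted p threshold of 0.05 as higher in overexpression than in wild type, and 0.0128% as higher in antisense than in wild type. Nothing is read from these shares for the 4 genes, since the same contrasts chose them. A pseudocount of 1 compresses differences from a wild type level near 0. With a pseudocount of 0.1 the overexpression difference of POPTR_0011s03140 was 7.90.

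The gap between the antisense and the overexpression line differed between the pairs of genes. In the antisense line, POPTR_0011s03140 stood at 28.3% of its overexpression level with H2O2 (22.4% to 35.4%), at 39.1% with ASA (32.0% to 47.6%) and at 27.3% in the control (23.0% to 32.2%). POPTR_0011s03150 stood at 16.5% with H2O2 (8.90% to 28.6%), at 25.6% with ASA (16.8% to 38.0%) and at 29.0% in the control (20.9% to 39.6%). The 2 genes of the 0013s numbers were at much lower shares. POPTR_0013s09960 stood at 4.29% with H2O2 (2.12% to 7.80%), at 5.34% with ASA (2.72% to 9.52%) and at 7.46% in the control (4.2% to 12.4%). POPTR_0013s09980 stood at 4.60% with H2O2 (2.60% to 7.57%), at 5.05% with ASA (2.91% to 8.21%) and at 5.76% in the control (3.66% to 8.68%). Within each treatment, the intervals of the 0011s pair and those of the 0013s pair did not overlap. With the 2 treated antisense labels exchanged, POPTR_0011s03150 would stand at 34.5% with H2O2 (22.4% to 52%) and at 12.3% with ASA (6.67% to 21.0%), and its ASA interval would overlap that of POPTR_0013s09960 with ASA, 2.46% to 9.13%. Antisense was below overexpression in 12 of 12 pairs of gene and treatment, an order that was part of how the genes were chosen.

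**Figure D2:**
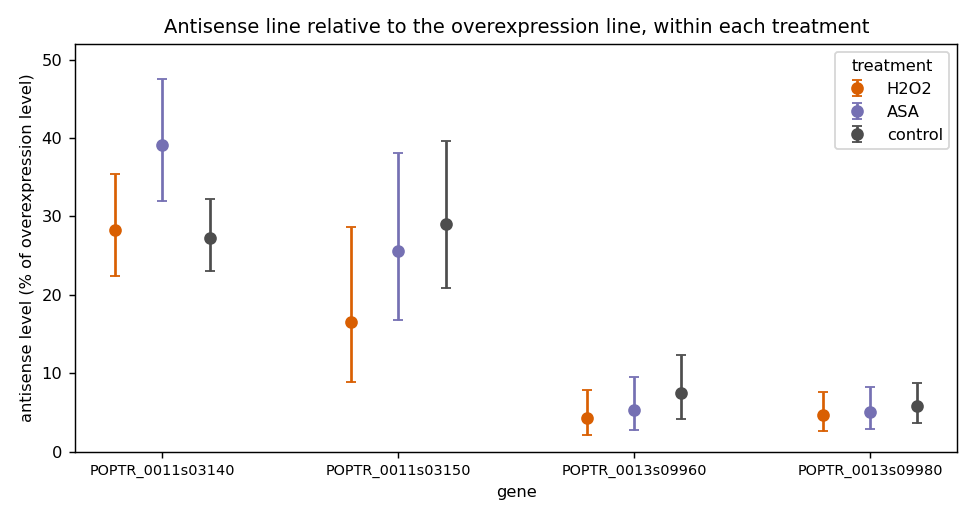
Level in the antisense line as a percentage of the level in the overexpression line for each gene, with H2O2, ASA and control from left to right; bars are exact 95% counting intervals on single libraries. The POPTR_0011s pair lies at 16.5% to 39.1% and the POPTR_0013s pair at 4.29% to 7.46%.

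The order of the 4 levels, all per length, differed between libraries, within the overexpression line as well as between lines. In overexpression control cells POPTR_0011s03140 was 1.14-fold above POPTR_0013s09980 (1.02 to 1.29), and POPTR_0013s09960 was at 0.888 of POPTR_0013s09980 (0.758 to 1.04), a pair of neighbours whose interval includes equal levels. POPTR_0011s03150 came last, at 0.578 of POPTR_0013s09960 (0.478 to 0.699). In treated overexpression cells the MADS-box gene had the highest value instead, though with ASA its lead was within counting error. This place rests on dividing by its short length. In reads it lay below both K-box genes there, with 271 against 368 and 363 reads with H2O2 and 223 against 334 and 363 with ASA. POPTR_0013s09960 was 1.27-fold above POPTR_0013s09980 with H2O2 (1.08 to 1.49) and 1.15-fold with ASA (0.968 to 1.37), while POPTR_0011s03140 lay at 0.720 of POPTR_0013s09980 with H2O2 (0.621 to 0.835) and at 0.793 with ASA (0.682 to 0.923). In all 3 antisense libraries POPTR_0011s03140 was the highest. It exceeded POPTR_0013s09980 there by 4.43-fold in the library labelled H2O2 (2.59 to 8.05), 6.14-fold in the one labelled ASA (3.70 to 10.8) and 5.41-fold in the control (3.52 to 8.67). For the other 3 genes, the antisense libraries had few reads. POPTR_0011s03150 over POPTR_0013s09960 was 0.960 with H2O2 (0.412 to 2.31), 1.88 with ASA (0.941 to 4.0) and 2.24 in the control (1.26 to 4.22), so that only the control interval excluded equal levels. POPTR_0013s09960 and POPTR_0013s09980 were not told apart in any antisense library, with ratios of 1.19 (0.498 to 2.72), 1.22 (0.530 to 2.70) and 1.15 (0.571 to 2.26) for H2O2, ASA and control.

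The 2 genes of the 0011s numbers had intervals of their ratio that overlapped between treatments within the overexpression line. POPTR_0011s03140 was 2.27-fold (1.81 to 2.88), 1.76-fold (1.43 to 2.18) and 2.23-fold (1.91 to 2.62) above POPTR_0011s03150 with H2O2, with ASA and in the control. For antisense cells the same ratio was 3.89 (2.24 to 7.21), 2.69 (1.82 to 4.08) and 2.10 (1.53 to 2.92). In wild type cells no such ratio could be read from 0 to 3 reads per gene.

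All 4 models were short. The lengths behind the FPKM values came out at 489 bp for POPTR_0011s03140, 294 bp for POPTR_0011s03150, 207 bp for POPTR_0013s09960 and 357 bp for POPTR_0013s09980, against a median of 1439 bp over 26131 genes with reads in every library. Each was a multiple of 3, as were 43.7% of those genes, and corresponds to 163, 98, 69 and 119 codons. Only 0.383% of genes were as short as POPTR_0013s09960, and 1.86%, 3.23% and 6.56% were as short as POPTR_0011s03150, POPTR_0013s09980 and POPTR_0011s03140. Neither K-box gene is described as holding a MADS-box, and the MADS-box gene is not described as holding a K-box. Whether models with neighbouring numbers are parts of one transcript was not tested. How the authors counted reads that fit near-identical copies is unknown, so such reads may be split among copies.

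Treatment is the factor the choice of genes did not use. No member passed the threshold in either treatment contrast of limma's fit, which pools the 3 lines. For H2O2 minus control, POPTR_0011s03140 differed by -0.69 ± 0.25 on the log2(FPKM + 1) scale (SE, limma adjusted p = 0.709) and POPTR_0011s03150 by -0.92 ± 0.26 (limma adjusted p = 0.635). Before adjustment, limma's p was 0.0272 and 0.00936 for these genes. POPTR_0013s09960 differed by -0.11 ± 0.28 (limma adjusted p = 0.952) and POPTR_0013s09980 by -0.24 ± 0.19 (limma adjusted p = 0.835). So 0 of 4 members passed with H2O2, where 0.00428% of all tested genes did, which was 1 gene, POPTR_0019s13100, and 1535 genes had an unadjusted p under 0.05. For ASA minus control, the differences were -0.37 ± 0.25 for POPTR_0011s03140, -0.43 ± 0.26 for POPTR_0011s03150, 0.13 ± 0.28 for POPTR_0013s09960 and -0.40 ± 0.19 for POPTR_0013s09980, with limma adjusted p from 0.886 to 0.977. With ASA, 0 of 4 members and 0% of all tested genes passed in limma, 1325 genes had an unadjusted p under 0.05, and voom on the recovered reads also called 0. Wild type libraries enter this fit with levels near 0. In the transgenic lines alone, the H2O2 differences were -0.96 ± 0.29 for POPTR_0011s03140 and -1.28 ± 0.30 for POPTR_0011s03150, and also did not pass. Without both treated antisense libraries they were -0.58 ± 0.33 and -0.60 ± 0.27. With the labels of those libraries exchanged, limma called 1621 genes with H2O2 and 6 with ASA, and still 0 of 4 members, with limma adjusted p from 0.230 to 0.865 for H2O2 and from 0.290 to 0.868 for ASA.

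Within the overexpression line the reads were numerous enough to compare single libraries, though not conditions. The level with H2O2 was 0.491 of the control level for POPTR_0011s03140 (0.432 to 0.557) and 0.482 for POPTR_0011s03150 (0.374 to 0.617). It was 0.780 for POPTR_0013s09980 (0.679 to 0.896) and 1.12 for POPTR_0013s09960 (0.936 to 1.33), whose interval included equal levels. With ASA, POPTR_0011s03140 was at 0.512 of its control level (0.451 to 0.581) and POPTR_0011s03150 at 0.649 (0.514 to 0.815). POPTR_0013s09980 was at 0.738 (0.640 to 0.851) and POPTR_0013s09960 at 0.958 (0.796 to 1.15). Thus 7 of 8 treated values lay below the control value of that line, 6 of them with an interval below equal levels, and the MADS-box gene accounted for both others.

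In the antisense line 8 of 8 treated values lay below the control, 4 of them with an interval below equal levels, all 4 from the 0011s pair. For this line too, no share of all genes is given beside the counts. POPTR_0011s03140 was at 0.509 of its control level in the library labelled H2O2 (0.393 to 0.655) and at 0.734 in the one labelled ASA (0.585 to 0.920). POPTR_0011s03150 was at 0.275 (0.143 to 0.496) and 0.573 (0.357 to 0.909). POPTR_0013s09960 was at 0.642 (0.269 to 1.47) and 0.685 (0.296 to 1.54), and POPTR_0013s09980 at 0.623 (0.309 to 1.22) and 0.647 (0.326 to 1.26), from 11 to 24 reads a library. With the 2 labels exchanged, each gene's values for H2O2 and ASA would change places, and all would still lie below the control. Both treatments share the control library of their line, so the values with H2O2 and with ASA are not independent of each other.

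**Figure D3:**
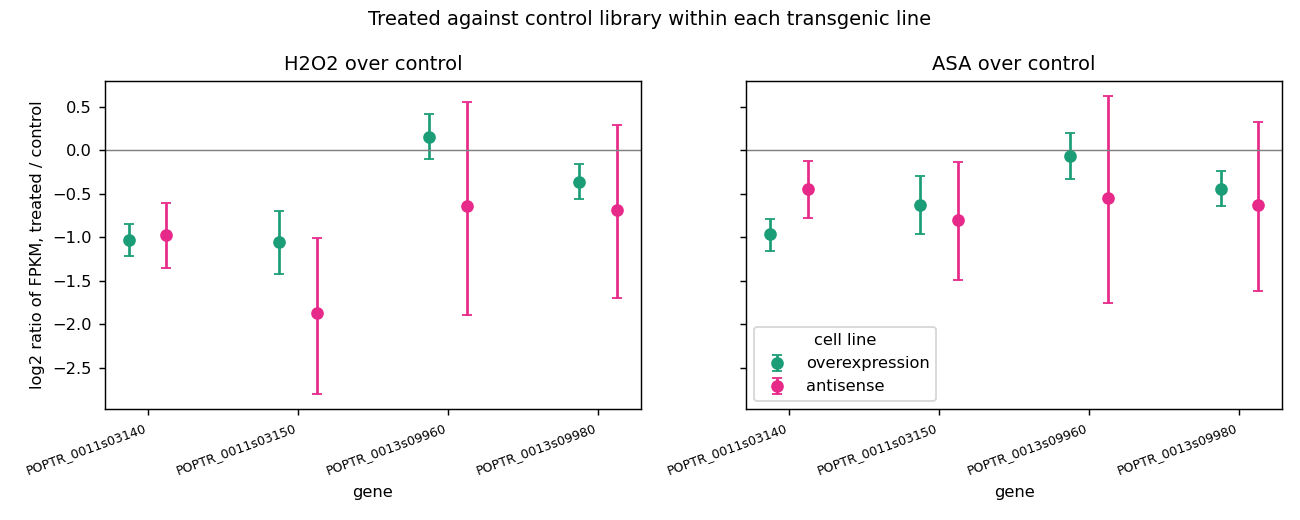
Log2 ratio of FPKM in the treated over the control library, for H2O2 on the left and ASA on the right, with the overexpression line left of the antisense line for each gene; points are pairs of single libraries and bars exact 95% counting intervals. The POPTR_0011s pair lies below 0 in all 8 pairs, while the intervals of POPTR_0013s09960 include 0 in all 4.

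The authors' deposited tables, which list genes they called different between a transgenic line and wild type within a treatment, hold 8 rows for the 4 genes, all from the overexpression line. Of all genes, the authors listed 2.47% for overexpression with H2O2, 2.94% with ASA and 2.06% in the control. For antisense they listed 1.59%, 3.34% and 0.596% in the same order. POPTR_0011s03140 is listed in the authors' deposited table for all 3 treatments, with a log2 fold of 5.27 with H2O2, 6.95 with ASA and 9.38 in the control. POPTR_0013s09980 is also listed in the authors' deposited table for all 3, with log2 folds of 6.24, 7.41 and 6.73 in the same order. POPTR_0013s09960 is listed in the authors' deposited table with H2O2 (8.12) and ASA (5.51), and is not listed for the control. POPTR_0011s03150 appears in none of the authors' deposited tables, and no member appears in the 3 antisense tables. The authors' q-values in their deposited tables ranged from 1.3256e-06 to 0.0048745 for these rows. Neither the rows nor these q-values are independent evidence, since differences from wild type in the same libraries chose the genes. The wild type signal is given as 0 in every one of the 8 rows of the authors' deposited tables, although up to 5 reads were recovered from the FPKM values of the same wild type library. Where wild type reads were recovered, the authors' log2 folds equalled the log2 FPKM ratios plus a constant offset per overexpression table, to within 4.79e-05. Those folds therefore match the recovered reads and not the listed 0. For POPTR_0011s03140 with H2O2 the wild type library had 0 recovered reads, so the fold in the authors' deposited table depends on a value that the sources used here do not give.

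Few other genes shared the switch between wild type and overexpression. Requiring at most 3 reads in every wild type library and at least 5 FPKM in every overexpression library left 5 genes, or 0.0120% of those listed, of which 2 were the 0011s pair. The 0013s pair fell just outside, because POPTR_0013s09960 had 5 reads in wild type ASA cells and POPTR_0013s09980 had 4 and 5 reads in wild type control and H2O2 cells. Of the other 3 genes, POPTR_0005s08870 has no description and had 22 FPKM with H2O2, 22.4 FPKM with ASA and 11.7 FPKM in the control in overexpression cells. POPTR_0013s08910, described with the SUI1 domain of translation initiation factors, had 7.49, 5.26 and 14.3 FPKM in the same libraries. POPTR_0004s12510, without a description, had 10.1, 6.02 and 8.02 FPKM there. In the antisense line, POPTR_0005s08870 had 0, 1.39 and 0 FPKM, POPTR_0013s08910 had 0, 0.0309 and 0 FPKM, and POPTR_0004s12510 had 0.416, 0.407 and 0.891 FPKM with H2O2, with ASA and in the control. Among the 5 genes, only the 0011s pair reached 1 FPKM in every antisense library, but presence in antisense cells was part of how that pair was chosen. The opposite pattern, at most 3 reads in every overexpression library and at least 5 FPKM in every wild type library, was met by 2 genes without a description, named here after their values were seen. POPTR_0003s16830 had no reads in overexpression cells, 5.76 to 7.86 FPKM in antisense cells and 6.30 to 8.57 FPKM in wild type cells. POPTR_0003s16850 had 0 to 0.230 FPKM in overexpression cells, 29.9 to 32.8 FPKM in antisense cells and 28.1 to 34.6 FPKM in wild type cells. In both, the antisense range overlapped that of wild type. It did not in the 4 genes, whose choice had used their presence in antisense cells.

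The authors' tables describe 2 further K-box genes, and both were lower in the overexpression line. Both carry a description only because the authors had listed them as different in these very samples, and their direction is therefore no independent evidence. POPTR_0002s10580 had 6.18, 7.0 and 9.64 FPKM with H2O2, with ASA and in the control in overexpression cells, and 18.1, 21.9 and 16.7 FPKM in antisense cells. In wild type cells it had 34.8, 35.6 and 32.3 FPKM. It fell by 2.05 ± 0.20 on the log2(FPKM + 1) scale in overexpression against wild type (SE, limma adjusted p = 0.00592). Leaving out 1 library, the difference was -2.28 to -1.94, and the call was lost in 3 of 9 fits: the adjusted p was 0.0502 without overexpression H2O2, 0.0543 without wild type H2O2 and 0.0525 without wild type ASA.

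POPTR_0003s11960 had 1.06, 1.15 and 2.71 FPKM with H2O2, with ASA and in the control in overexpression cells, and 10.1, 9.71 and 10.2 FPKM in antisense cells. In wild type cells it had 18.7, 16.2 and 19.1 FPKM. It fell by 2.90 ± 0.22 on the log2(FPKM + 1) scale in overexpression against wild type (limma adjusted p = 0.00227). Antisense minus wild type was -0.83 ± 0.20 for POPTR_0002s10580 (limma adjusted p = 0.341) and -0.79 ± 0.22 for POPTR_0003s11960 (limma adjusted p = 0.434). So 2 of 2 passed as lower in overexpression, where 1.81% of all tested genes did. In antisense, 0 of 2 passed as lower, where 0.0685% did. An unadjusted p under 0.05 in limma was found there for 2 of 2, and for 7.64% of all tested genes. The antisense libraries of both genes lay between the overexpression and the wild type libraries without overlap. This order was met by 0.874% of all tested genes, and the opposite order, which chose the 4 genes, by 0.685%. At 775 bp and 1164 bp, both models were longer than any of the 4.

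**Figure D4:**
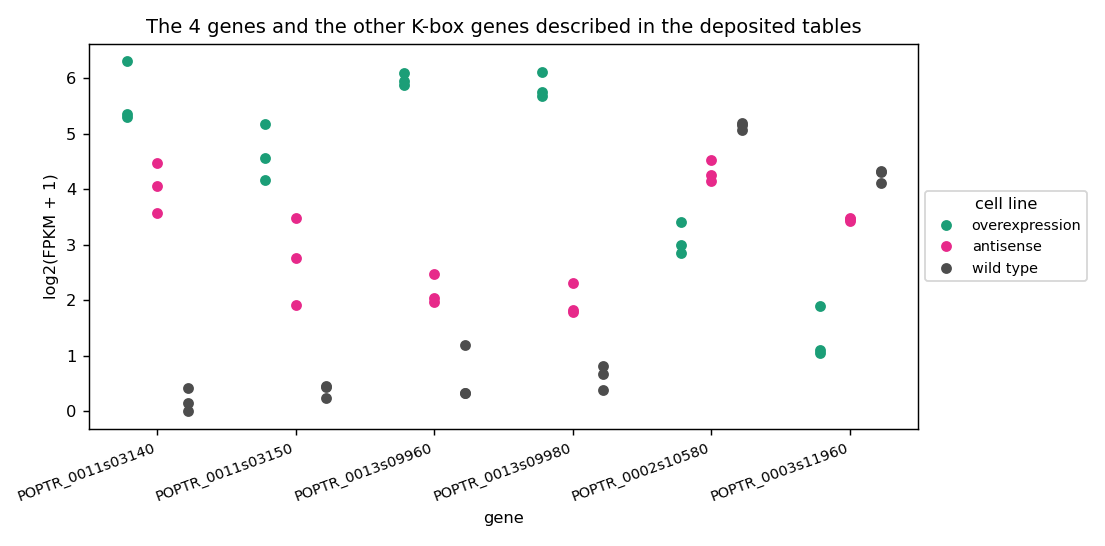
The 4 genes and the other 2 described K-box genes on the log2(FPKM + 1) scale, with overexpression, antisense and wild type from left to right for each gene; each point is 1 library, 3 treatments per line. The first 4 genes are highest in overexpression, whereas POPTR_0002s10580 and POPTR_0003s11960 are highest in wild type, and the antisense libraries lie between those of the other lines for every gene shown.

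Regulators of flowering time, a process in which MADS-box genes act, were looked up by the wording of the deposited descriptions. The 8 genes found were described by GIGANTEA, a clock-linked regulator of flowering, by the CCT domain, which in Arabidopsis is found in CONSTANS, or by the SBP-box of squamosa promoter-binding proteins. Of those with a CCT domain, POPTR_0007s03120 and POPTR_0017s06970 are also described with a GATA-type zinc finger and a Tify domain. The list is one of wording, and whether each gene acts in flowering was not tested. As with the K-box genes, a description exists only for genes the authors had listed as different in these samples, so these values are no independent evidence of direction or size. All 8 had lower fitted values in overexpression than in wild type, as did 11665 of 23350 tested genes. The median difference was -0.81 (log2(FPKM + 1)) against 0.000538 over all tested genes. The direction did not hold in every treatment. In the control, POPTR_0020s00320 had 94.5 FPKM in overexpression and 31.1 FPKM in wild type cells, and POPTR_0007s03120 had 17.2 and 16.2 FPKM. Both were lower in overexpression with H2O2 and with ASA. In the fit, 1 of 8 passed the test and 0 passed as higher, where 2.86% of all tested genes passed either way. That gene was POPTR_0004s10800, described with a CCT domain and a B-box zinc finger. It had 0.134, 0.140 and 3.74 FPKM with H2O2, with ASA and in the control in overexpression cells, 3.30, 3.02 and 6.26 FPKM in antisense cells, and 13.5, 13.9 and 22.2 FPKM in wild type cells. It fell by 3.23 ± 0.31 in overexpression against wild type (limma adjusted p = 0.00543). In antisense against wild type, 0 of 8 passed in limma (0.0814% of all tested genes did). An unadjusted p under 0.05 in limma was found there for 1 of 8, and for 7.64% of all tested genes. The median was 0.23 against 0.0898 over all genes. In overexpression against wild type, limma's unadjusted p was under 0.05 for 5 of 8, and for 19.6% of all tested genes. For H2O2 it was so for 3 of 8 and for 6.57% of all tested genes, and for ASA for 2 of 8 and for 5.67%. GIGANTEA itself, POPTR_0005s21870, had an overexpression minus wild type difference of -0.42 ± 0.27 (limma adjusted p = 0.462).

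Genes with chromatin wording in their descriptions were looked up in the same way. That wording included PHD, a type of zinc finger, which also brought in genes described otherwise. Among these were POPTR_0004s21990, described as a SIZ1-type E3 SUMO-protein ligase, and POPTR_0012s04070, of the NFX1 transcription factor family. The list is therefore one of wording. The 8 genes found included POPTR_0007s10830, described as a histone-lysine N-methyltransferase of the EZ type, a class whose Arabidopsis members repress MADS-box genes. It had 22.6, 11.8 and 9.69 FPKM with H2O2, with ASA and in the control in overexpression cells, against 9.88, 7.88 and 6.48 FPKM in wild type cells. Its overexpression minus wild type difference was 0.72 ± 0.31 (limma adjusted p = 0.254). Of the 8, 0 passed in limma in any of the 4 contrasts, where 2.86%, 0.0814%, 0.00428% and 0% of all tested genes passed for overexpression, antisense, H2O2 and ASA. An unadjusted p under 0.05 in limma was found for 2 of 8 in overexpression against wild type, and for 19.6% of all tested genes. For antisense, H2O2 and ASA it was found for 1 of 8 each, and for 7.64%, 6.57% and 5.67% of all tested genes. The median overexpression minus wild type difference was -0.09. As for the flowering genes, a description exists only for genes the authors had listed as different in these samples. All tested genes are therefore no matched background, and these counts are no independent evidence.

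Among genes whose numbers lie close to those of the 4, 1 passed the test as higher in overexpression, where 1.05% of all tested genes did. Of 20 other genes numbered POPTR_0011s03040 to POPTR_0011s03250 around the 0011s pair, 7 had no reads in any library and 6 were abundant enough to be tested. Among these, 1 was higher in overexpression than in wild type by the test and 0 were lower. POPTR_0011s03100, described as a GDSL lipase, had 7.90, 10.8 and 3.90 FPKM with H2O2, with ASA and in the control in overexpression cells, 1.39, 0.825 and 0.392 FPKM in antisense cells, and 0.502, 0.360 and 0.386 FPKM in wild type cells. It rose by 2.50 ± 0.28 on the log2(FPKM + 1) scale in overexpression against wild type (limma adjusted p = 0.00847). Without overexpression H2O2 the adjusted p was 0.0571, without wild type H2O2 0.0668 and without wild type ASA 0.0596. The genes with directly adjoining numbers, POPTR_0011s03130 and POPTR_0011s03160, had no reads in any of the 9 libraries.

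Around the 0013s pair, 14 other genes numbered POPTR_0013s09930 to POPTR_0013s10080 were listed, of which 4 had no reads and 7 were tested. Their overexpression minus wild type differences ranged from 0.02 to 0.34, and 0 passed in limma, with 0 at an unadjusted p under 0.05. POPTR_0013s09970, whose number lies between those of the pair, had no reads in any library. POPTR_0013s09990, the next number, had 23.7, 26.3 and 43.6 FPKM in overexpression cells and 30.1, 28.3 and 30.2 FPKM in wild type cells with H2O2, with ASA and in the control. Numbers stand here for neighbourhood in the identifiers only, since no coordinates were used.

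**Figure D5:**
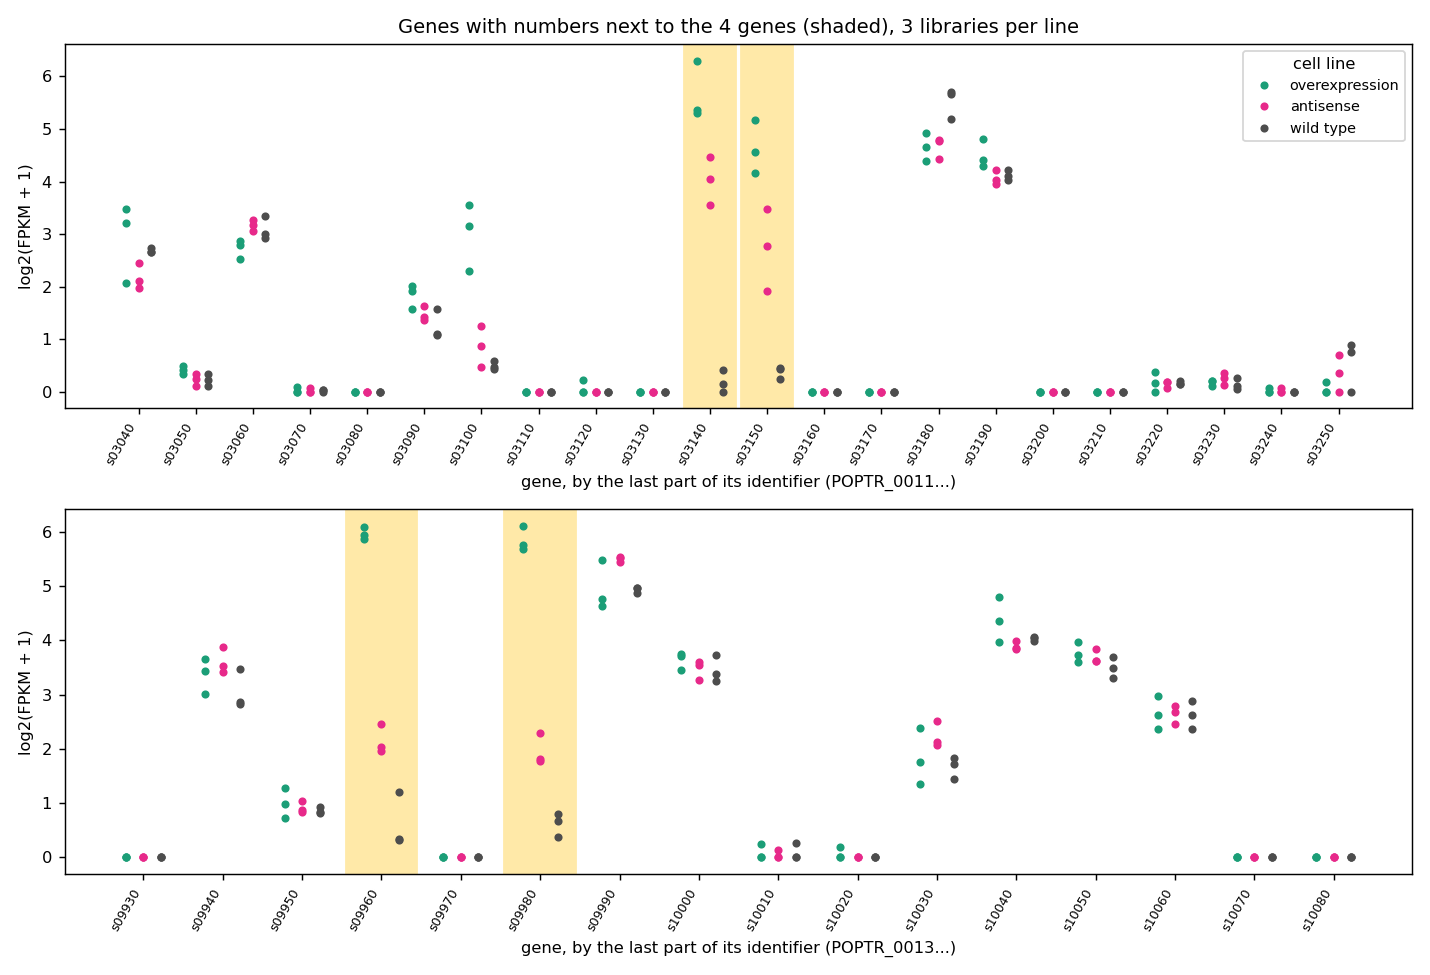
Genes with numbers close to the POPTR_0011s pair (top) and the POPTR_0013s pair (bottom) on the log2(FPKM + 1) scale, with overexpression, antisense and wild type from left to right for each gene; points are single libraries and shading marks the 4 genes. POPTR_0011s03100 passed the test as higher in overexpression, and 7 neighbours in the top row and 4 in the bottom row have no reads.

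Likeness of pattern was measured as Pearson's r between a gene and the mean profile of the 4 over the 9 libraries, on log2(FPKM + 1) values. As a description, r was 0.96, 0.99, 0.98 and 0.97 for POPTR_0011s03140, POPTR_0011s03150, POPTR_0013s09960 and POPTR_0013s09980, which are part of that mean. Of 23346 other genes, 24 had r of at least 0.95. The highest was POPTR_0013s15260 at 0.98, without a description, yet it spanned only 18.1 to 19.6 FPKM in overexpression, 15.1 to 16.4 FPKM in antisense and 12.5 to 13.2 FPKM in wild type cells. Close behind at 0.98 was POPTR_0013s11270, also undescribed, which had 2.39, 2.29 and 3.86 FPKM in overexpression cells, 1.11, 0.987 and 1.19 FPKM in antisense cells, and 0.0988, 0.198 and 0.290 FPKM in wild type cells with H2O2, with ASA and in the control. Among described genes the most alike were POPTR_0014s10670 (0.97), a ribosomal protein of the L29 family, and POPTR_0010s00900 (0.97), an ERF-type transcription factor. POPTR_0014s10670 had 90.4 to 102 FPKM in overexpression, 50.6 to 57.9 FPKM in antisense and 36.6 to 42.7 FPKM in wild type cells. POPTR_0229s00240, a multi antimicrobial extrusion transporter with r = 0.96, had 22.7 to 27.1 FPKM in overexpression, 6.55 to 8.02 FPKM in antisense and 2.89 to 5.49 FPKM in wild type cells. POPTR_0013s11270 had 1 to 3 reads per wild type library, while the other alike genes named here had far more, and changed less between lines than the 4 did.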

How the data were processed

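RNA sequencing covered 9 libraries of suspension cells, grouped by title. The tools named are HTSeq 0.6.1, TopHat2 2.0.12 and Bowtie2 2.2.3, per the submitters' processing notes, with no role, and the sources used here name no genome build. The authors deposited FPKM values per gene and 6 comparison tables, which per the file headers hold scaled read values (a signal of unstated scale), log2 fold changes, p-values and q-values for genes they had called.

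Whole reads were recovered from the FPKM values for 100% of 33158 genes above 0 (relative tolerance 5e-09). Where a gene's reads share a common factor, the smallest whole numbers were taken. Descriptions come from the authors' deposited tables; 0 identifiers matched the reference table.

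limma 3.58.1 (R 4.3.3) was fitted to log2(FPKM + 1) with additive terms for treatment and line, a trend, a mean of at least 1 FPKM (23350 genes) and Benjamini-Hochberg adjustment at 0.05. With no replicates, the 4 residual degrees of freedom measure how line and treatment effects vary across each other, not the spread between cultures. Ratios have exact 95% intervals (SciPy 1.17.1). The script for the fit was also run on simulated data with known changes, and no result here rests on that run.

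Members and lists were chosen with earlier results of these data known. Wordings for flowering and chromatin lists were adjusted after the descriptions had been read: as first written they matched 1 and 67 genes. Named genes are the 4, other MADS-box genes, listed genes past the threshold, genes near absent in wild type and the 10 genes most alike in profile, with the 10 most alike described ones; a few of these, the neighbours POPTR_0011s03100 and POPTR_0013s09990, the GIGANTEA gene and the EZ-type gene were picked for mention after their values were seen.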

Additional observations from a re-analysis of the deposited data

How the results depend on the processing

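Alternatives covered the pseudocount, the filter on low values, the scaling, the trend, voom on recovered reads, leaving out each library, leaving out both treated antisense libraries and, for treatments, the transgenic lines alone. A further alternative, chosen after seeing the data, exchanged the labels of the 2 treated antisense libraries. No member passed a treatment contrast under any of the 18 alternatives. The count of genes past the threshold with H2O2 was 1 and became 0 with a pseudocount of 0.1, with no filter, with median-ratio scaling, with no trend, with voom, without both treated antisense libraries and with the transgenic lines alone; leaving out 1 library gave 0 to 1, with 1 only without the library labelled antisense ASA. With ASA it was 0 in 17 alternatives. With the antisense labels exchanged it was 1621 for H2O2 and 6 for ASA; the cause was not tested. The treatment differences of POPTR_0013s09960 changed sign: H2O2 minus control, -0.11, became 0.024 with voom and 0.081 without both treated antisense libraries, with -0.33 to 0.12 when 1 library was left out. ASA minus control, 0.13, became -0.25 with the transgenic lines alone, with -0.22 to 0.36 when 1 library was left out. The cause was not tested. The overexpression minus wild type differences of the 4 genes stayed positive, from 3.96 to 8.30, and the antisense ones too, from 1.23 to 6.63; the highest of each came from voom. As background, leaving out 1 library, genes past the threshold in overexpression against wild type, 668, ranged from 70 without wild type ASA to 1478 without the overexpression control. In antisense against wild type, 19, they ranged from 0 without any one of 7 libraries to 30 without the overexpression control. With the antisense labels exchanged these counts were 3385 and 110. POPTR_0003s11960 and POPTR_0004s10800 passed under all 17 alternatives tried for line contrasts, and recomputing these and the other named genes was chosen after seeing the data. The fit compares lines within treatments, and the labels give no replicate numbers for a further block. Wild type levels of the 4 genes rest on 0 to 5 reads a library, which limits every fold against wild type.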
